A study of Mus musculus with 8 samples.

Results

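The genes of glycolysis and of the response to low oxygen were followed in primary mandibular fibrochondrocytes, the cells of the fibrous cartilage that covers the condyle of the jaw joint. The list held 38 named genes: 18 genes for enzymes of the pathway, 4 for transporters of glucose and lactate, 8 for kinases that set the flow of sugar and pyruvate, and 8 for hypoxia inducible factors, their oxygen sensors and their targets. All 38 were found among the 55401 genes of the table, where they take 39 entries because Aldoa is listed under a second identifier. Poly(A) RNA was sequenced from 4 NG2ko libraries (genotype NG2/CSPG4 -/-) and 4 WT libraries. Each came from cells of pups aged 10 to 14 days, grown untreated in serum-containing medium to passage 4. For the sequenced cells the methods of the study give an age of 14 days. NG2/CSPG4 is a membrane-spanning chondroitin sulfate proteoglycan. The knockout was a germline deletion made on a C57BL/6N background and backcrossed to C57BL/6J for a few generations, and it was set against C57BL/6J cells. It is lost in every cell of the animal, and litter, sex and any pooling of pups are not given in the sources used here. The p-values below therefore set the difference between the genotypes against the spread between these libraries. The study counts the libraries of a genotype as 4 biological replicates. Neither oxygen nor glucose was varied.

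Glycolysis splits glucose into pyruvate in the cytosol and yields ATP without oxygen. Cartilage has no vessels, and its cells are known to live at low oxygen tension and to make much of their ATP in this way, exporting the lactate that lactate dehydrogenase forms from pyruvate. The hypoxia inducible factors HIF-1 and HIF-2 are pairs of an oxygen-labile alpha subunit with ARNT. When oxygen is present, prolyl hydroxylases mark the alpha subunit for destruction through VHL, and when it is scarce the pair binds DNA at a short core element and turns on glycolytic enzymes, glucose uptake and pyruvate dehydrogenase kinase.

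The libraries held 60317187 to 83668935 counts. Cspg4, the deleted gene, had 9.37 ± 2.85 CPM in NG2ko and 221 ± 17.2 CPM in WT (SD, n = 4 each, CPM being counts scaled to library size by TMM). Cartilage genes marked the cells in both genotypes, and 8 of the 15 tested chondrocyte markers were called higher in NG2ko and 0 lower. Some other marker lists moved as well: 14 of 16 myeloid markers were higher and 0 lower, with a summed level of 361 to 424 CPM in NG2ko and 106 to 126 CPM in WT, and 3 of 6 proliferation markers were higher, with 165 to 176 CPM in NG2ko and 137 to 155 CPM in WT. Of 4 tested endothelial markers 1 was higher, and the skeletal muscle, erythroid and neural lists had no call, with Myh3, Myod1, Snap25 and Rbfox3 at 0. The 4 Y-linked markers summed to 187.7 to 202 CPM in NG2ko and 0 to 0.286 CPM in WT, so sex and genotype cannot be told apart, which bears on the X-linked members Pgk1, Pdk3 and Pfkfb1. The part of these differences in the results below was not tested, and in bulk RNA fewer cells of a type and less RNA per cell cannot be told apart.

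In WT cells the mean level of the list spanned 258 FPKM at the top and 0.0416 FPKM at the bottom. FPKM, which scales fragments to gene length and library size, allows genes to be compared with each other. Pkm, the gene of pyruvate kinase M, stood at the top with 191 ± 7.64 FPKM in NG2ko and 258 ± 17.1 FPKM in WT (SD, n = 4 each). Below it in WT came Aldoa at 167 ± 9.02 FPKM and Pgam1 at 152 ± 5.41 FPKM, whose libraries overlapped, and then Ldha at 123 ± 6.27 FPKM and Pgk1 at 111 ± 8.28 FPKM, which overlapped as well. Hif1a, the alpha subunit of HIF-1, stood among the enzymes with 53.3 ± 0.703 FPKM in NG2ko and 47.5 ± 4.38 FPKM in WT. Epas1, the alpha subunit of HIF-2, had 0.942 ± 0.114 FPKM in NG2ko and 1.20 ± 0.0717 FPKM in WT. At the low end were Car9, the membrane carbonic anhydrase IX, with 0.180 ± 0.0932 FPKM in NG2ko and 0.0416 ± 0.0161 FPKM in WT, and Ankrd37, a HIF-1 target, with 0.123 ± 0.0596 FPKM in NG2ko and 0.107 ± 0.0633 FPKM in WT. At the phosphofructokinase step, which commits sugar to the pathway, Pfkm was the highest isoform in FPKM. It had 9.70 ± 0.659 FPKM in NG2ko and 11.0 ± 0.263 FPKM in WT. In CPM, which is not scaled to gene length, Pfkp was the highest, at 48.4 in NG2ko and 51.7 in WT. Pfkm had 35.3 CPM in NG2ko and 41.2 CPM in WT. Gapdh also stood low, at 10.4 ± 0.114 FPKM in NG2ko and 10.9 ± 0.915 FPKM in WT, and its reads are taken up separately below.

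**Figure D1:**
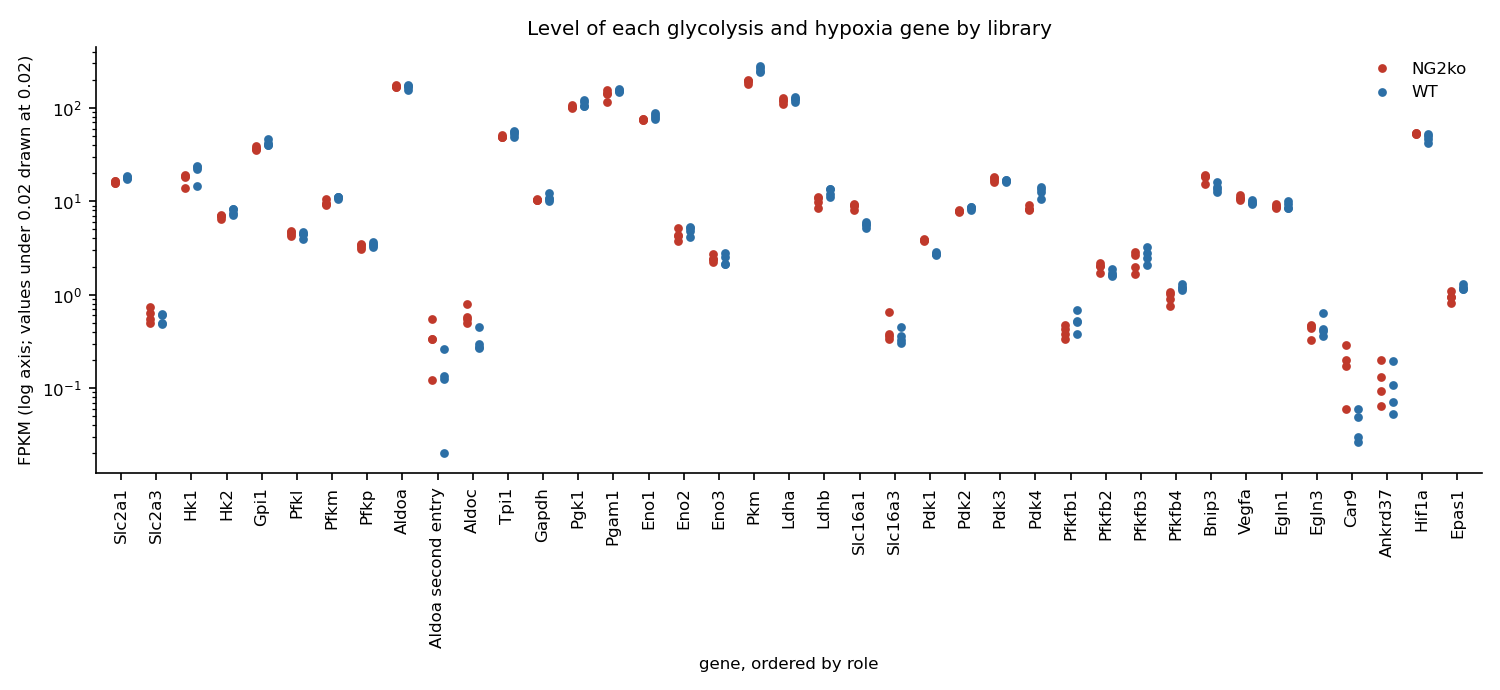
The plot gives the FPKM of every member (vertical log axis) in each of the 4 NG2ko (red, left) and 4 WT (blue, right) libraries, with genes in the order of their roles along the horizontal axis. Pkm lies highest, and Car9 and Ankrd37 lie lowest among the 38 genes in WT.

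Genes were called from edgeR's quasi-likelihood test at a Benjamini-Hochberg adjusted p under 0.05 over all 17190 tested genes. Of the 39 entries, all of which passed the filter on low counts, 4 were higher in NG2ko (Slc16a1, Pdk1, Aldoc and Car9), 5 were lower (Pkm, Pdk4, Gpi1, Slc2a1 and Ldhb) and 30 were not called. Over all tested genes 5.45% were called higher and 6.75% lower, or 12.2% in either direction, against 23.1% of the members. The counts gave 937 higher and 1160 lower over all genes. A limma fit of FPKM with a pseudocount of 0.1, which differs in unit, filter, scaling and test and covered 16856 genes, turned that balance, with 1168 higher and 898 lower. In 4 members every NG2ko library was above every WT library, where 9.81% of all genes did so, and in 11 every NG2ko library was below, where 10.1% did so, or 38.5% of the members and 19.9% of all genes in either direction. The median log2 fold change of NG2ko over WT was -0.11 over the members and 0.02 over all tested genes. The members were chosen with earlier results of these data known. Their shares beside those of all genes are therefore a description and not a test. With the thresholds of the study, a p under 0.05 without adjustment and a log2 fold change of more than 1 either way, 1 member was higher (Car9) and 0 were lower, where 2.06% of all genes were higher and 1.15% lower. The calls that held in all 19 other fits and library sets were Slc16a1, Pdk1, Pkm and Pdk4, and the other 5 were lost in at least 4 of them.

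**Figure D2:**
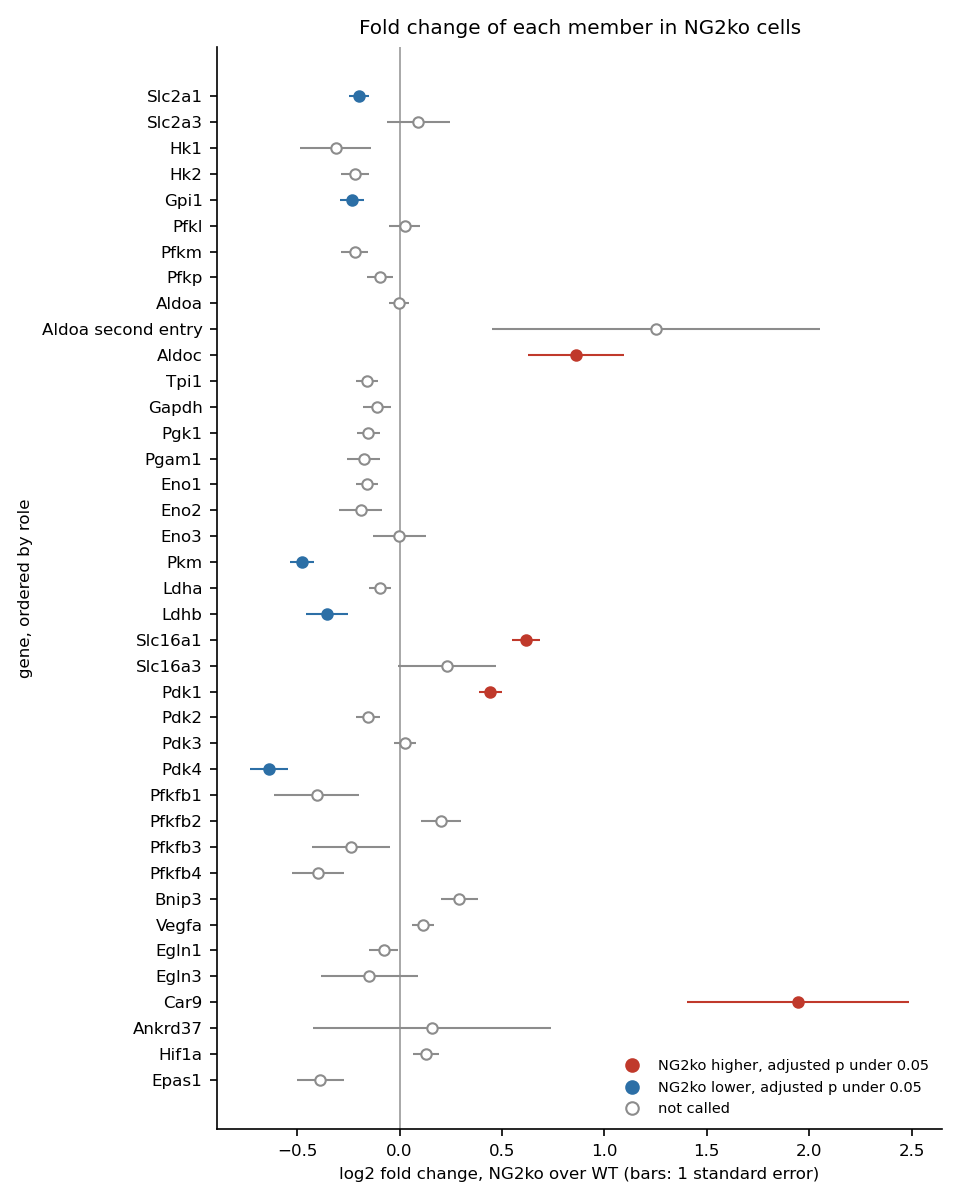
Each point is the log2 fold change of NG2ko over WT (horizontal axis) of a member, with a bar of 1 standard error. Filled points passed an adjusted p of 0.05, in red where NG2ko was higher and in blue where it was lower, and most enzyme genes lie to the left of 0.

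The enzyme genes were mostly lower in NG2ko by small amounts. Of 18 genes, 3 fell (Pkm, Gpi1 and Ldhb), 1 rose (Aldoc), and 14 were not called, and 16 had a log2 fold change below 0, or 88.9%, where 47.2% of all tested genes had one. Their median log2 fold change was -0.16. The choice of these genes, made with earlier results of the data known, limits this comparison too. With FPKM in place of counts 14 of the 18 were below 0, and the median was -0.12 with a pseudocount of 0.1. Summed over the 18 genes, the level was 969, 941, 909.7 and 994 FPKM in NG2ko libraries 1 to 4, against 1101, 1012, 1050.2 and 1110.3 FPKM in WT libraries 1 to 4. The groups did not overlap, and the NG2ko mean was 89.3% of the WT mean. Without Pkm the sums were 762 ± 30.5 FPKM in NG2ko and 810 ± 33.0 FPKM in WT (SD, n = 4 each), 94.1% of WT, and the groups overlapped.

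Pkm, the most abundant member, fell in NG2ko. The gene (ENSMUSG00000032294, GRCm38 chr9:59656368-59679375) encodes the enzyme that makes pyruvate and ATP from phosphoenolpyruvate in the last step of glycolysis. Its level was 1081, 1052, 988 and 1044 CPM in NG2ko libraries 1 to 4, against 1494, 1396, 1329 and 1569.6 CPM in WT libraries 1 to 4. The highest NG2ko library lay below the lowest WT library. The log2 fold change was -0.48 (standard error 0.059, edgeR adjusted p = 5.88e-04), or 71.9% of the WT level, and leaving out each library in turn gave -0.52 to -0.44. The counts are per gene and do not separate the M1 and M2 forms, which differ by an alternative exon. Pkm lies 2.79 Mb from Cspg4 on chromosome 9. Among the tested genes within 5 Mb of Cspg4, 4 were higher and 8 lower of 104, or 11.5%, where 12.2% of all genes were called. Within 20 Mb 13.6% of 375 were called. These counts leave out Cspg4 but include Pkm itself. Whether the flanking DNA of the knockout line bears on Pkm was not tested.

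Gpi1 and Ldhb fell by less, and neither call held in all fits. Gpi1 (ENSMUSG00000036427, chr7:34201330-34230336) encodes glucose-6-phosphate isomerase, which turns glucose 6-phosphate into fructose 6-phosphate. It had 254, 248, 273 and 261 CPM in NG2ko, against 304, 290.4, 286 and 337 CPM in WT, with no overlap. Its log2 fold change was -0.23 (standard error 0.061, edgeR adjusted p = 0.0328), and the adjusted p went up to 0.0924 without NG2ko replicate 1, 0.0876 without NG2ko replicate 2, 0.0712 without NG2ko replicate 4, 0.0793 without WT replicate 1 and 0.0505 without WT replicate 4. Ldhb (ENSMUSG00000030246, chr6:142490249-142507957), the heart-type subunit of lactate dehydrogenase, had 18.9, 14.6, 18.9 and 16.7 CPM in NG2ko, against 23.6, 19.7, 23.6 and 21.5 CPM in WT. The groups did not overlap here either. Its log2 fold change was -0.35 (standard error 0.101, edgeR adjusted p = 0.0476), and the call was lost without any library other than WT replicate 2, with adjusted p from 0.059 to 0.122.

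Aldoc was the only enzyme gene that rose. The gene (ENSMUSG00000017390, chr11:78322968-78327781) encodes aldolase C, an isoform known from brain. It had 2.85, 1.81, 2.02 and 2.05 CPM in NG2ko, against 0.994, 1.11, 1.03 and 1.68 CPM in WT. It rose by 0.86 on the log2 scale (standard error 0.235, edgeR adjusted p = 0.0388). Every NG2ko library was above every WT library, but the lowest NG2ko and the highest WT library were close. The adjusted p was 0.117 without NG2ko replicate 1, 0.0711 without NG2ko replicate 3, 0.0733 without NG2ko replicate 4, 0.10 without WT replicate 1, 0.0871 without WT replicate 2 and 0.0906 without WT replicate 3. Aldoc made up 0.353% of the Aldoa and Aldoc FPKM in NG2ko and 0.193% in WT. Aldoa, the muscle-type aldolase that carries nearly all of that sum, had 543 ± 10.9 CPM in NG2ko and 545 ± 30.1 CPM in WT (SD, n = 4 each), and its log2 fold change of -0.00 had a standard error of 0.049. The second Aldoa entry had at most 0.505 CPM in any library and was not called.

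Of the other enzyme genes, Pfkm, Hk2 and Eno1 had no overlap between the groups but were not called. Pfkm, the muscle-type phosphofructokinase, had 33.5, 39.1, 35.1 and 33.6 CPM in NG2ko, against 41.2, 41.8, 39.3 and 42.4 CPM in WT, with a log2 fold change of -0.22 (edgeR adjusted p = 0.0513). Hk2, the hexokinase known to be inducible, had 44.8 ± 2.11 CPM in NG2ko and 52.1 ± 4.07 CPM in WT (edgeR adjusted p = 0.0672). Eno1, enolase 1, had 441 ± 6.95 CPM in NG2ko and 492 ± 32.8 CPM in WT (edgeR adjusted p = 0.0859). By their own entries these 3 lay just outside the threshold, and Pfkm passed it in 7 of the 19 other fits and library sets. The copies of Eno1 are taken up below. Tpi1, triosephosphate isomerase, had 147 ± 2.24 CPM in NG2ko and 165 ± 10.8 CPM in WT (edgeR adjusted p = 0.0889), and its groups overlapped through WT replicate 2. Pgk1, phosphoglycerate kinase 1, had 252 ± 6.80 CPM in NG2ko and 280.1 ± 19.6 CPM in WT (edgeR adjusted p = 0.115), and Ldha, the muscle-type subunit of lactate dehydrogenase, had 428 ± 19.8 CPM in NG2ko and 457 ± 22.3 CPM in WT (edgeR adjusted p = 0.294). Pfkl, Pfkp, Eno2 and Eno3, further isoforms of phosphofructokinase and enolase, were not called and had log2 fold changes from -0.19 to 0.03.

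Hk1, the hexokinase of most tissues, was set apart by 1 library of each genotype. It had 169, 179.7, 129 and 171 CPM in NG2ko libraries 1 to 4, against 212, 223, 139 and 230.4 CPM in WT libraries 1 to 4. In both genotypes the library numbered 3 was the lowest. The log2 fold change was -0.31 (standard error 0.173, edgeR adjusted p = 0.320), and without WT replicate 3 it was -0.46 (edgeR adjusted p = 0.0299). With the replicate number as a block it was -0.30 (edgeR adjusted p = 0.0216), but whether these numbers pair the libraries is not known.

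The entry of Gapdh, glyceraldehyde-3-phosphate dehydrogenase, held only a small part of the counts on Gapdh and its near-identical copies. The mouse genome holds many processed copies of the Gapdh mRNA. In the GENCODE transcripts of GRCm38, 90 other genes of the table match a Gapdh transcript over at least 300 bases at 95% identity or more. These took 42537 to 58578 counts per library, where the Gapdh entry (ENSMUSG00000057666, chr6:125161715-125165773) took 2731 to 4083. The copies thus held 93.1% to 93.6% of the summed counts in NG2ko and 93.0% to 94.1% in WT. Gm7336, a processed pseudogene on chromosome 7, averaged 10814 counts in NG2ko and 10968 in WT, more than Gapdh itself, and its sequence has 0 mismatches to the 1002 coding bases of Gapdh. Every stretch of 100 bases of the Gapdh coding sequence is found unchanged in a copy, so a read of that length from it has more than 1 exact match. The stretch printed here, coding bases 355 to 414 counted from the A of the start codon, is where Gm5559 on chromosome 5 has its only mismatch to the Gapdh coding sequence. It is T385A, and its base is given as a capital. Gm5559 averaged 8582 counts in NG2ko and 8577 in WT.
Gapdh: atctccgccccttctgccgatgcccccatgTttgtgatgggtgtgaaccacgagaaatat
Gm5559: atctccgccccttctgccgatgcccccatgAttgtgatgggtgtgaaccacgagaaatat
Gm7336: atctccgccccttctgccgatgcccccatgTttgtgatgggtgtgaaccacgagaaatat
The same holds for Gm2606 on chromosome 15, with the mismatch C583T, Gm12033 on chromosome 11, with T504C, and Gm12070 on chromosome 11, with G361A. How reads with several exact matches were shared out is not given in the sources used here. Pgk1 and Pgam1 also have every stretch of 100 coding bases unchanged in a copy. Their copies held 1.63% to 3.13% (Pgk1) and 10.2% to 13.5% (Pgam1) of the summed counts per library. Why these shares lie below that of Gapdh was not tested.

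Adding the copies to the gene moved the level of Gapdh more than its fold change. The entry by itself had 46.8 ± 0.610 CPM in NG2ko and 50.5 ± 4.51 CPM in WT (SD, n = 4 each), with a log2 fold change of -0.11 (standard error 0.067, edgeR adjusted p = 0.351). The sum of Gapdh and its 90 copies was 724, 678, 700.3 and 720.4 CPM in NG2ko, against 786, 761, 754 and 813 CPM in WT. With the sum in place of the entry, every NG2ko library was below every WT library, the log2 fold change was -0.14, and the call was still not made (edgeR adjusted p = 0.0694). Gapdh was the gene to which the RT-qPCR measurements of the study were normalized. Eno1 had 4 copies with 10.2% to 12.8% of the summed counts in NG2ko and 5.64% to 12.6% in WT, most of them on the pseudogene Gm4735 and the retrogene Eno1b, and Pgam1, phosphoglycerate mutase 1, had 1 copy, Pgam1-ps2, with 10.6% to 13.5% in NG2ko and 10.2% to 11.7% in WT. Merging them gave log2 fold changes of -0.14 for Eno1 (edgeR adjusted p = 0.222) and -0.16 for Pgam1 (edgeR adjusted p = 0.211), against -0.16 and -0.17 (edgeR adjusted p = 0.0859 and 0.205) for the entries by themselves. The merged Eno1 groups overlapped, with 484 CPM in WT replicate 2 and 494 to 503 CPM in NG2ko, unlike those of the entry by itself. Pkm had 1 copy with at most 1.5996% of its summed counts.

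**Figure D3:**
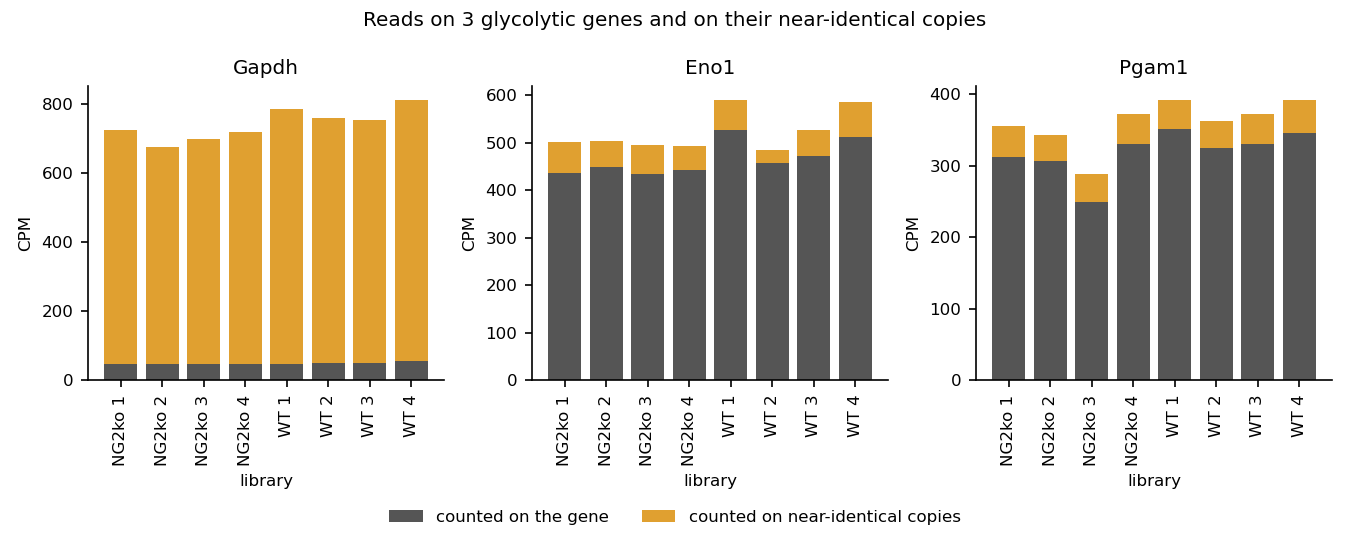
Bars give CPM (vertical axis from 0) in each NG2ko and WT library for Gapdh, Eno1 and Pgam1, split into counts on the gene (grey) and counts on its near-identical copies (orange). Gapdh is nearly all orange, at 93.0% to 94.1% of each bar, and the 4 NG2ko bars of Gapdh end below the 4 WT bars.

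The transporters at either end of the pathway moved in opposite directions. Slc16a1 (ENSMUSG00000032902, chr3:104638668-104658462) encodes the monocarboxylate transporter MCT1, which carries lactate and pyruvate with protons across the plasma membrane. It had 39.3, 45.2, 43.2 and 43.7 CPM in NG2ko libraries 1 to 4, against 28.3, 30.2, 27.2 and 26.0 CPM in WT libraries 1 to 4. The 2 ranges lay well apart, and the log2 fold change was 0.62 (standard error 0.068, edgeR adjusted p = 2.91e-04), or 153% of WT. Slc2a1 (ENSMUSG00000028645, chr4:119108711-119137983), the glucose transporter GLUT1, had 62.5, 60.8, 60.4 and 63.0 CPM in NG2ko, against 68.3, 72.9, 69.0 and 72.5 CPM in WT. Its groups did not overlap, and it fell by 0.20 on the log2 scale (standard error 0.048, edgeR adjusted p = 0.0236), but the adjusted p was 0.0619, 0.0637 and 0.0788 without NG2ko replicates 1, 2 and 3. Slc2a3, the glucose transporter GLUT3, and Slc16a3, the lactate exporter MCT4, were low, at 0.606 ± 0.101 FPKM in NG2ko and 0.553 ± 0.0684 FPKM in WT and at 0.434 ± 0.151 FPKM in NG2ko and 0.360 ± 0.0661 FPKM in WT, and neither was called. Slc16a1 made up 95.4% of the FPKM of the 2 lactate transporters in NG2ko and 94.0% in WT.

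Among the pyruvate dehydrogenase kinases, Pdk1 rose and Pdk4 fell. These enzymes phosphorylate pyruvate dehydrogenase and so keep pyruvate from entering the citric acid cycle. Pdk1 (ENSMUSG00000006494, chr2:71873224-71903858), known as a HIF-1 target, had 32.4, 33.6, 31.8 and 32.1 CPM in NG2ko, against 23.7, 24.9, 23.6 and 23.4 CPM in WT. All 4 NG2ko libraries were above the WT range, and the log2 fold change was 0.44 (standard error 0.056, edgeR adjusted p = 6.51e-04). Pdk4 (ENSMUSG00000019577, chr6:5483351-5496309), known to be induced in fasting, had 31.4, 35.05, 30.7 and 31.1 CPM in NG2ko, against 49.4, 56.5, 52.1 and 41.5 CPM in WT. It was lower in every NG2ko library, with a log2 fold change of -0.64 (standard error 0.092, edgeR adjusted p = 0.00146), or 64.3% of WT. Pdk2 had 27.1 ± 0.772 CPM in NG2ko and 30.1 ± 1.09 CPM in WT, without overlap but with an edgeR adjusted p of 0.119, and Pdk3, the most abundant of the 4 in FPKM (17.3 ± 0.891 in NG2ko and 16.6 ± 0.433 in WT), had 48.4 ± 2.22 CPM in NG2ko and 47.5 ± 1.23 CPM in WT (edgeR adjusted p = 0.817). As a share of the summed FPKM of the 4 genes, Pdk1 took 10.2% ± 0.267 in NG2ko and 6.77% ± 0.149 in WT, and Pdk4 took 22.4% ± 1.36 in NG2ko and 31.3% ± 3.11 in WT (SD, n = 4 each). The summed level of the family was 37.4 ± 0.634 FPKM in NG2ko and 40.5 ± 1.46 FPKM in WT.

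**Figure D4:**
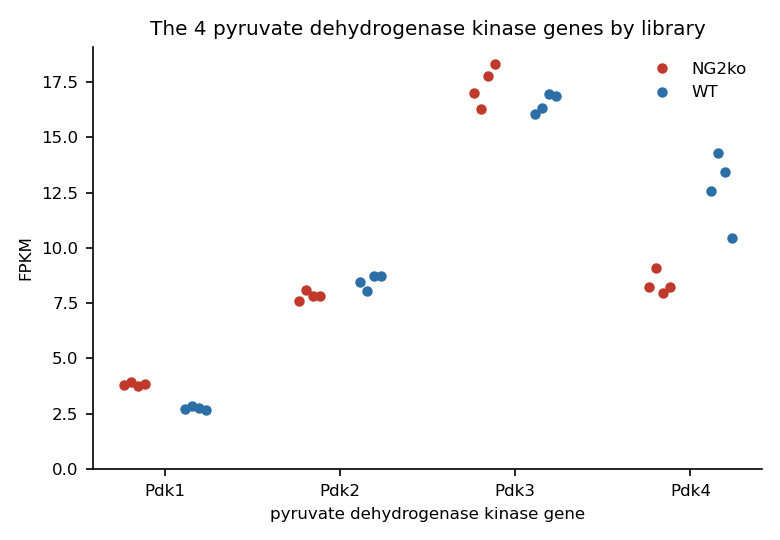
Points give the FPKM (vertical axis from 0) of Pdk1, Pdk2, Pdk3 and Pdk4 in each NG2ko (red, left) and WT (blue, right) library. Pdk1 lies higher and Pdk4 lower in all 4 NG2ko libraries, while the Pdk3 points overlap.

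The bifunctional PFKFB enzymes make and break an activator of phosphofructokinase, and none of their 4 genes was called. Pfkfb4 had 5.67, 4.84, 5.42 and 4.04 CPM in NG2ko, against 7.14, 6.14, 6.51 and 6.57 CPM in WT. These groups did not overlap, and the log2 fold change was -0.40 (edgeR adjusted p = 0.0693). Pfkfb3, the isoform known as hypoxia-inducible, ranged from 13.9 to 23.5 CPM in NG2ko and from 17.6 to 27.2 CPM in WT (edgeR adjusted p = 0.503). Pfkfb2 had 15.9 ± 1.69 CPM in NG2ko and 13.8 ± 1.10 CPM in WT, and Pfkfb1 had 1.79 ± 0.275 CPM in NG2ko and 2.38 ± 0.545 CPM in WT, both with overlap.

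Among the 8 hypoxia members only Car9 was called, at very low counts, and this 12.5% is close to the 12.2% of all tested genes that were called. Car9 (ENSMUSG00000028463, chr4:43506966-43513729), which acts on carbon dioxide at the cell surface and is a strong HIF-1 target, had 0.509, 0.445, 0.160 and 0.714 CPM in NG2ko, against 0.135, 0.0850, 0.157 and 0.0934 CPM in WT. The lowest NG2ko library was barely above the highest WT library. These were 13 to 50 counts in NG2ko and 6 to 11 counts in WT, so the gene passed the filter on low counts only through NG2ko, where it is high, and its test is not independent of that filter. The log2 fold change was 1.95 (standard error 0.542, edgeR adjusted p = 0.0433). Without the filter the call was lost (edgeR adjusted p = 0.0589), and the adjusted p was between 0.0654 and 0.146 without any library other than NG2ko replicate 3. Bnip3, a mitochondrial protein of mitophagy and a HIF-1 target, had 44.7, 37.9, 46.1 and 46.7 CPM in NG2ko, against 36.3, 31.9, 40.5 and 34.6 CPM in WT. NG2ko replicate 2 lay inside the WT range, and the log2 fold change of 0.29 was not called (edgeR adjusted p = 0.0619). Vegfa, the vessel growth factor, had 51.1 ± 2.11 CPM in NG2ko and 47.2 ± 1.80 CPM in WT (edgeR adjusted p = 0.224), and Ankrd37 was at 0.357 CPM or less in every library.

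The factors and their sensors were not called either. Hif1a had 348, 343, 346 and 335 CPM in NG2ko, against 307, 345, 324 and 279 CPM in WT, with a log2 fold change of 0.13 (edgeR adjusted p = 0.234). Epas1 had 5.71, 6.70, 4.99 and 5.64 CPM in NG2ko, against 7.53, 8.19, 7.14 and 7.25 CPM in WT, with a log2 fold change of -0.39 (edgeR adjusted p = 0.0518). The Epas1 groups did not overlap, and the gene passed the threshold in 6 of the 19 other fits and library sets. Egln1 and Egln3, the prolyl hydroxylases PHD2 and PHD3, had 34.7 ± 1.61 CPM in NG2ko and 36.6 ± 3.09 CPM in WT and 1.25 ± 0.194 CPM in NG2ko and 1.38 ± 0.364 CPM in WT. HIF-1 is set mostly by the breakdown of its protein, which RNA does not show.

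**Figure D5:**
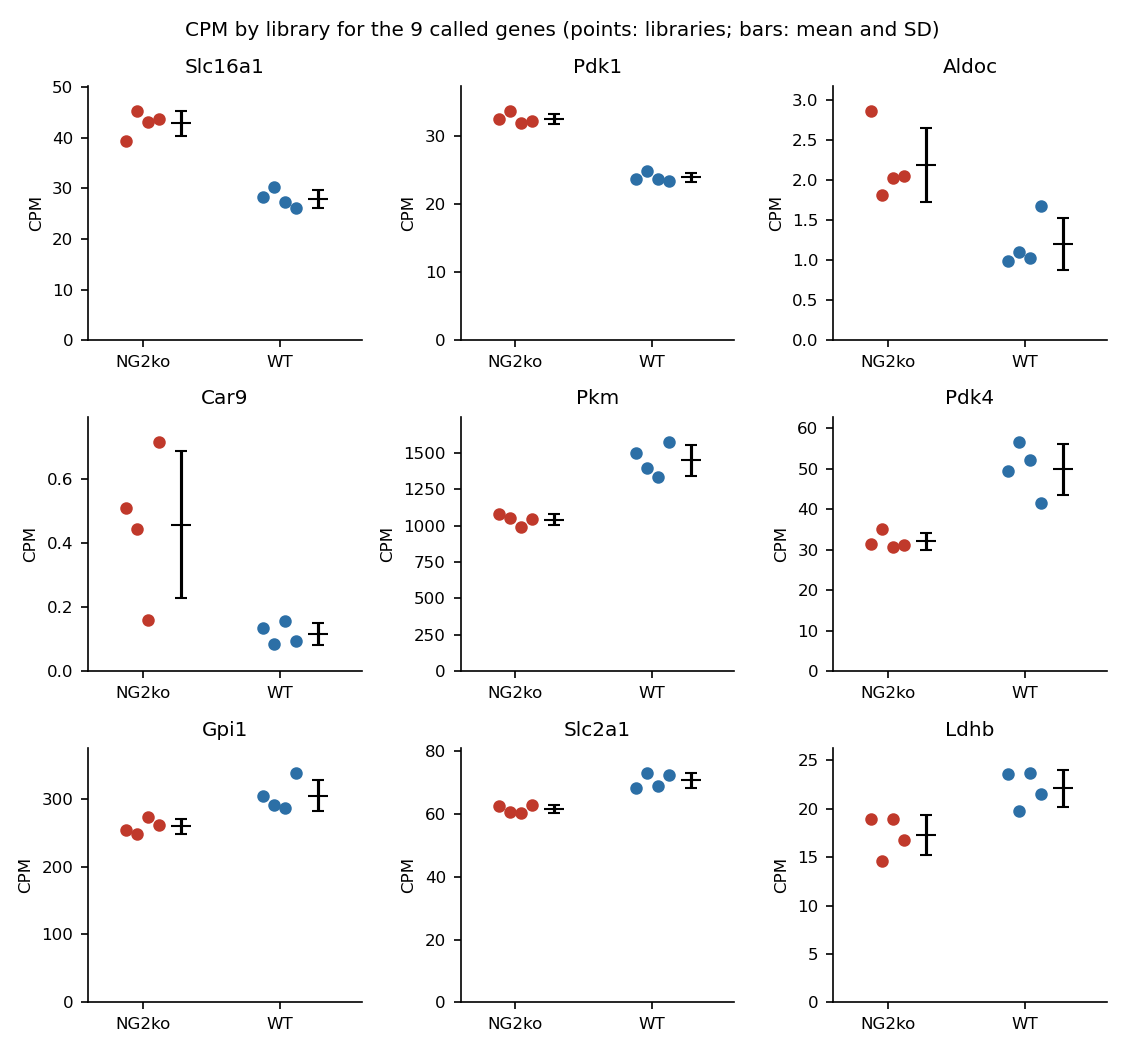
Each panel gives the CPM (vertical axis from 0) of a called gene in the 4 NG2ko (red, left) and 4 WT (blue, right) libraries, with the mean and SD as black bars. Slc16a1, Pdk1, Aldoc and Car9 lie higher and Pkm, Pdk4, Gpi1, Slc2a1 and Ldhb lie lower in NG2ko, and no panel has overlapping groups.

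Ratios between isoforms of the same step were taken within each library, which removes the scaling between libraries. Of 13 ratios, 5 had no overlap between the groups. Among all tested genes 19.9% had none in CPM, which is a share over genes and not over ratios. The ratios with Pdk1, Aldoc and Ldhb reuse genes called above, so they are not separate results. The count ratio of Pdk1 to Pdk2 was 1.24, 1.20, 1.17 and 1.20 in NG2ko, against 0.790, 0.867, 0.771 and 0.750 in WT. In NG2ko Pdk1 thus had more counts than Pdk2 in all 4 libraries, and in WT it had fewer in all 4. The difference was 0.60 on the log2 scale, and it was 0.87 for Aldoc over Aldoa, -0.25 for Pfkm over Pfkl, -0.26 for Ldhb over Ldha and -0.53 for Epas1 over Hif1a. Each of the 5 had p = 0.0286 in a two-sided exact permutation test, the smallest that 4 libraries against 4 allow, and 0.0743 after adjustment over the 13 ratios, so none passed. Ldhb made up 7.83% ± 0.747 of the lactate dehydrogenase FPKM in NG2ko and 9.23% ± 0.461 in WT, and Epas1 made up 1.74% ± 0.214 of the alpha subunit FPKM in NG2ko and 2.47% ± 0.164 in WT (SD, n = 4 each).

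The promoters of the members were read for the core of the HIF element, ACGTG or GCGTG on either strand. The window ran from 250 bases before to 50 bases after the most upstream RefSeq start of each gene on GRCm38.p6. Other starts of a gene were not read. Of the 36 members with a window, 28 held the core, or 77.8%, where 43.8% of all 27025 windows did, and 52.8% held ACGTG, where 19.6% of all windows did. The list was chosen for glycolysis and the response to low oxygen, and all windows include genes not tested here. The higher share among the members is therefore no result of comparing the genotypes. The core was present in 4 of 4 members called higher, 3 of 5 called lower and 21 of 27 not called. The windows of the 4 genes called in all 19 other fits and library sets are shown to set the promoters of genes that changed in opposite directions side by side, with the core in capitals on the printed strand (as CACGT or CACGC where it reads on the other strand).
Slc16a1, chr3:104638414-104638713, plus strand: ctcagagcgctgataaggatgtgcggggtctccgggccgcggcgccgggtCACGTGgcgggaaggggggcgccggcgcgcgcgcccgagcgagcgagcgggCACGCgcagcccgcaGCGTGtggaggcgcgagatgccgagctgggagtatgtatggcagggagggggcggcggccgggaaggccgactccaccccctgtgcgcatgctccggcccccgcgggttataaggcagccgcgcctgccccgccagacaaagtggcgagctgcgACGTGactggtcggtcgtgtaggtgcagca
Pdk1, chr2:71872974-71873273, plus strand: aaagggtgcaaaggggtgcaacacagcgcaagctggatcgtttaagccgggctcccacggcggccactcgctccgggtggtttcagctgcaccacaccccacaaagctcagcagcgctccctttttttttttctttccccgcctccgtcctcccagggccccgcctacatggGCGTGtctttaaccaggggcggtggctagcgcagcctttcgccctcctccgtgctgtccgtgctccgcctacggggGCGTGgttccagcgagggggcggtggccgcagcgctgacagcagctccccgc
Pkm, chr9:59656326-59656625, plus strand: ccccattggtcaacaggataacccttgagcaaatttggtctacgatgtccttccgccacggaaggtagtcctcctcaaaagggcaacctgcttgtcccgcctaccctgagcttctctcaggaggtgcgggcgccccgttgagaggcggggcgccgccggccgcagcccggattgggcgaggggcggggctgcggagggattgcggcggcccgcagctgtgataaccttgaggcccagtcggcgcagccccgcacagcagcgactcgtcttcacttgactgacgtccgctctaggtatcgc
Pdk4, chr6:5496229-5496528, minus strand: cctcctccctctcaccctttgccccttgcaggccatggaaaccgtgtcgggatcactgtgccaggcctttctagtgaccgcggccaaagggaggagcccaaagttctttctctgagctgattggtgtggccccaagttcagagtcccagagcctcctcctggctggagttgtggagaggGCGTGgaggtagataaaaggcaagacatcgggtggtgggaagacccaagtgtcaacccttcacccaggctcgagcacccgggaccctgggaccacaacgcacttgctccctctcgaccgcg
The Slc16a1 window has 5 cores, of which 3 are ACGTG and 2 overlap as the palindrome CACGTG, and the Pdk1 window has 2. The Pdk4 window has 1, and the Pkm window has 0. Of the other called genes, Aldoc and Car9, which were higher, had 3 and 1. Gpi1, Slc2a1 and Ldhb, which were lower, had 0, 2 and 1. Among the members not called, the number was 0 in Hk1 and reached 7 in Ldha. The number of cores in the 4 printed windows is therefore no result about the direction of change. A match is only a stretch of letters, and binding was not measured.

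The neighbouring pathways were read from lists of other genes, also chosen with earlier results of the data known. Their counts stand beside the 5.45% of all tested genes called higher and the 6.75% called lower. In the pentose phosphate pathway, which branches from glucose 6-phosphate and makes NADPH, 0 of 8 genes were higher and 3 lower: Pgd, 6-phosphogluconate dehydrogenase, with a log2 fold change of -0.42 (edgeR adjusted p = 0.00201), G6pdx, the X-linked first enzyme, with -0.35 (edgeR adjusted p = 0.00395), and Tkt, transketolase, with -0.27 (edgeR adjusted p = 0.0205). G6pdx had 74.7 ± 3.31 CPM in NG2ko and 95.3 ± 6.31 CPM in WT. The median of the list was -0.08. Of 12 further sugar and lactate transport genes 0 were higher and 1 lower, namely Bsg, basigin, which carries MCT1 to the membrane, with 523 ± 21.4 CPM in NG2ko and 641 ± 31.1 CPM in WT (log2 fold change -0.29, edgeR adjusted p = 0.00423). Its direction was opposite to that of Slc16a1. Of 11 genes that take pyruvate into the citric acid cycle 0 were higher and 1 lower, Cs, citrate synthase, at -0.17 (edgeR adjusted p = 0.0311). The mitochondrial pyruvate carrier genes and the pyruvate dehydrogenase subunit genes were in that list and were not called.

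Of 15 other genes of glycolysis and gluconeogenesis 2 were higher and 2 lower. Pck2, the mitochondrial phosphoenolpyruvate carboxykinase, rose by 0.32 on the log2 scale (edgeR adjusted p = 0.0115), Adpgk, the ADP-dependent glucokinase, rose by 0.17 (edgeR adjusted p = 0.0319), and Galm, galactose mutarotase, fell by 0.36 (edgeR adjusted p = 0.0175). Among 12 genes of the HIF machinery, Arnt2, a partner of the alpha subunits, had 31.02 ± 0.803 CPM in NG2ko and 48.7 ± 2.87 CPM in WT (log2 fold change -0.65, edgeR adjusted p = 8.60e-05), and Vhl had 36.4 ± 1.10 CPM in NG2ko and 30.1 ± 0.746 CPM in WT (log2 fold change 0.27, edgeR adjusted p = 0.00793). Hif3a was at 0 in every library. Of 32 other HIF targets 8 were higher and 3 lower, where 5.45% of all tested genes were higher and 6.75% lower, and the median log2 fold change of the list was 0.07. The 3 with the smallest p are named here, and 2 of them were lower, so they do not show the balance of the list. Hmox1, heme oxygenase 1, had 637 ± 10.4 CPM in NG2ko and 995 ± 43.8 CPM in WT (log2 fold change -0.64, edgeR adjusted p = 2.23e-05). Ndrg1, a stress response gene, had 99.0 ± 4.20 CPM in NG2ko and 72.4 ± 2.77 CPM in WT (log2 fold change 0.45, edgeR adjusted p = 3.73e-04). Loxl2, a collagen crosslinking enzyme, was at -0.51 on the log2 scale (edgeR adjusted p = 7.45e-04). Of 12 regulators of glucose use and Myc partners 1 was higher and 1 lower: Mlxip, a glucose-sensing factor, at 0.29 (edgeR adjusted p = 0.0493) and Ppard, a nuclear receptor of fatty acids that is known to act on Pdk4, at -0.61 (edgeR adjusted p = 0.0366). Ppard had 26.2 to 30.1 CPM in NG2ko and 35.6 to 59.8 CPM in WT.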

How the data were processed

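The deposited table held, for each of 4 NG2ko and 4 WT libraries, whole-number counts per gene and FPKM values that the authors made with StringTie from stranded poly(A) reads mapped by HISAT2 to the mouse genome of Ensembl release 101. The counter and the tool versions are not given in the sources used here. Tests were run on the counts, and levels of different genes were compared on FPKM. Groups came from the labels, and 0 columns of per-sample values were left without a sample. Members, roles and lists were chosen with earlier results of these data known.

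Counts (60317187 to 83668935 per library) were scaled by TMM, filtered with edgeR's filterByExpr at a count minimum of 10, and compared by genotype alone with the robust quasi-likelihood test of edgeR 4.0.16 in R 4.3.3. Standard errors are the absolute log2 fold change over the square root of F. Isoform ratios, with 0.5 added to each count, were compared by two-sided exact permutation tests. Copies were transcripts matching a member over at least 300 bases at 95% identity. Named were all members, Cspg4, copies, up to 3 called genes per pathway list with the smallest p, and, chosen after their values were seen, the markers at 0. Alternatives were the omission of each library, no filter, a replicate block, a filter of at least 1 CPM in 4 libraries, DESeq2 1.42.0, upper-quartile and median-ratio scaling, limma-voom (limma 3.58.1), FPKM with pseudocounts of 0.1 and 1, and the study's thresholds. Merged copies and an ordinary prior were added after seeing the data. The code was tested on simulated counts.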

Additional observations from a re-analysis of the deposited data

Results flagged for a closer look

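Among 78 sets of 4 libraries, 3 held a library far from the other 3 by Dixon's criterion, which chance alone gives in about 5% of such sets. Aldoc had 1.68 CPM in WT replicate 4, where the other WT libraries had 0.994 to 1.11 CPM. Slc16a3 had 3.81 CPM in NG2ko replicate 4, where the other NG2ko libraries had 1.995 to 2.23 CPM. Pdk1 had 24.9 CPM in WT replicate 2, where the other WT libraries had 23.4 to 23.7 CPM, and it stayed below all NG2ko libraries.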

How the results depend on the processing

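Leaving out each library in turn gave 2 to 4 members higher and 2 to 7 lower, 613 to 900 genes higher and 838 to 1089 lower over all genes, 5 to 7 isoform ratios without overlap, and a log2 ratio of the summed enzyme FPKM of -0.19 to -0.14. The number of ratios without overlap could not fall below 5, because dropping a library cannot make separated groups overlap. That range therefore says nothing of how stable the 5 ratios are. The members called higher were 2 without NG2ko replicate 1, NG2ko replicate 4, WT replicate 1 or WT replicate 2. The members called lower were 2 without NG2ko replicate 1 and 3 without NG2ko replicate 3, NG2ko replicate 4 or WT replicate 1, and 613 genes were higher without NG2ko replicate 3. The thresholds used in the study left 1 member higher (Car9) and 0 lower, and 354 genes higher and 198 lower over all genes. Members called lower were 8 with DESeq2 and 3 with FPKM at either pseudocount. The log2 ratio of the enzyme sum was -0.16 with FPKM and -0.24 with CPM. The correlations of same-numbered libraries were low, at 0.00, 0.03, 0.03 and 0.04. NG2ko replicates 2, 3 and 4 correlated best with the WT library of their own number, and NG2ko replicate 1 did not. Values this small cannot decide whether the replicate numbers pair the libraries. With the replicate block 3 members were higher and 5 lower, and 792 and 1023 over all genes; Slc2a1 (adjusted p = 0.0515), Aldoc (0.0722) and Car9 (0.137) lost their calls, and Hk1 (0.0216) and Bnip3 (0.0276) gained one. Only genes that were not called changed sign. Aldoa had 0.0020 without a filter and 0.0364 and 0.0362 with FPKM at pseudocounts of 0.1 and 1, and Eno3 had 0.0026 with the block, 0.0048 without a filter, 0.0095 with limma-voom, and 0.0424 and 0.0302 with FPKM at the same pseudocounts. With a library left out, the log2 fold change ran from -0.017 to 0.17 for Slc2a3, -0.033 to 0.063 for Pfkl, -0.029 to 0.36 for Slc16a3, -0.035 to 0.024 for Aldoa, -0.24 to 0.048 for Egln3, -0.19 to 0.57 for Ankrd37 and -0.058 to 0.064 for Eno3. The cause was not tested. At 6 to 50 counts per library, Car9 had the least depth of the called genes.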
